A study of Mus musculus with 48 samples.

Results

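The genes described here mark B cells and the antibody-secreting plasma cells that B cells become. They are Pax5, Ighm, Cd79a, Cd79b, Ms4a1, Jchain and Mzb1, 7 of the 36854 genes in a count table of bulk RNA from 48 mouse sarcomas, found by matching each row's Ensembl identifier to these symbols. All 7 symbols matched 1 row each, and all 7 passed the filter on low counts in every fit. The rule that sets the members uses gene names and no measured value.

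The tumours were p53/MCA sarcomas in the calf muscle of mice of 129/SvJae background. The 32 primary tumours arose in p53FL/FL mice aged 6 to 10 weeks after Adeno-Cre, an adenovirus carrying Cre recombinase, and 300 µg of the carcinogen MCA were injected into the muscle. Cre deletes p53 only in the cells that the virus reaches, so host cells of the same tumour, B cells included, keep their floxed alleles. The 16 allografts grew from 50000 cells of the single line 402230 in syngeneic mice, so all of them share 1 tumour cell source. At a volume near 150 mm3 each mouse received 200 µg of an isotype control antibody or of the mouse anti-PD-1 antibody muDX400, which blocks a receptor that restrains T cells. This was followed at once by 0 or 20 Gy to the hind limb, and tumours were taken on day 3. That gives 8 groups, with 4 allografts or 8 primary tumours for each combination of dose and antibody. Tumours treated with 0 Gy and the isotype antibody are called the control group of their kind below.

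B cells carry an antibody on their surface as the antigen receptor. Its heavy chain is first made with the Ighm constant region, and the receptor signals through a partner pair encoded by Cd79a and Cd79b. Pax5 is the transcription factor that holds B cell identity, and Ms4a1 encodes CD20, a surface protein of mature B cells. When a B cell becomes a plasma cell it shuts off Pax5 and Ms4a1 and secretes antibody; Jchain links the units of secreted IgM and IgA, and Mzb1 is a chaperone of the endoplasmic reticulum that helps antibody assembly.

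Library totals ran from 31.8 to 54 M counts. The members themselves were low in many tumours: Ms4a1 had 4 to 153 counts per tumour, Cd79a 6 to 256, Pax5 6 to 800 and Mzb1 7 to 441, while Ighm had up to 5731 and Jchain 67 to 6033. Collagen and other mesenchymal markers were found in every tumour, with a summed level of the 5 listed genes of 3971 to 39470 CPM over the 48 tumours (counts scaled to a common library size by TMM normalisation), and the 6 skeletal muscle markers summed to 9.88 to 61200 CPM. None of the 16 listed B cell surface and signalling genes was at 0 throughout a group. Bulk RNA cannot tell fewer B cells from less RNA per B cell. No label says that the tumours of a group came from separate litters or cohorts, so p-values measure the spread between these tumours.

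In the mm10 build the members lie on separate chromosomes. Pax5 spans chr4:44524757-44710487 and Jchain chr5:88519809-88527891, both on the minus strand. Cd79a spans chr7:24897381-24902197 on the plus strand, Cd79b chr11:106311341-106314762 on the minus strand, Ighm chr12:113418558-113422730 on the minus strand and Ms4a1 chr19:11249675-11266241 on the minus strand. Exons of Pax5 and Ms4a1 are overlapped by genes on the opposite strand, which were listed at no more than 0.0457 CPM (Gm12462), 0.0225 CPM (5730488B01Rik) and 0.12 CPM (4930526L06Rik) in any tumour. Whether the counting used strand is not given in the sources used here.

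The RefSeq table of promoter windows (build GRCm38.p6, 250 bases before to 50 bases after a start site) held 3 of the 7 members, Pax5, Jchain and Cd79a. The windows of Pax5 (chr4:44710645-44710944, minus strand) and Cd79a (chr7:24897247-24897546, plus strand) are shown because the levels of these genes parted across the tumours, as described further down. Capitals mark the bases from the start site on.
Pax5: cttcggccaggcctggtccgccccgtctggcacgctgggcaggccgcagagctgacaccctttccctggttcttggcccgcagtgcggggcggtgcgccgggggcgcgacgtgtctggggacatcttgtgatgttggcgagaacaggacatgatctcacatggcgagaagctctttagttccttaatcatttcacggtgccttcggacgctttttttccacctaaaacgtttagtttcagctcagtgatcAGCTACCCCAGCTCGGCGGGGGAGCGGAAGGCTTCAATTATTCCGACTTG
Cd79a: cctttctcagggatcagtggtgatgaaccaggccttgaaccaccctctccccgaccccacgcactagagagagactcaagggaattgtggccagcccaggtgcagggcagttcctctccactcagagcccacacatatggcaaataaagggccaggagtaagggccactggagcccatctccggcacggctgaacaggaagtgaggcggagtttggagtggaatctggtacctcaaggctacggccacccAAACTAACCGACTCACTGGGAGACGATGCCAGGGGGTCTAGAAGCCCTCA
The octamer ATGCAAAT of immunoglobulin promoters, searched on both strands, was in 1.74% of 32851 promoter windows and in 0 of the 3 member windows, which says only that these letters are not in these stretches.

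Per kilobase of exon, which allows genes to be compared, Ighm was the most abundant member with a median of 24.5 CPM per kb over the 48 tumours, followed by Jchain at 9.20. The others were far lower: Cd79b had a median of 1.70 CPM per kb, Mzb1 1.20, Cd79a 0.643, Pax5 0.156 and Ms4a1 0.0847. This order did not hold in each group. In control allografts Jchain (20.2) was above Ighm (15.7), Mzb1 (2.66) above Cd79b (1.09), and Ms4a1 (0.115) above Pax5 (0.0384). Tumours differed widely in each member. The highest tumour exceeded the lowest 155-fold for Jchain, the widest of the 7, and 22.7-fold for Cd79b, the narrowest. When the 8 groups were ordered by their mean, neighbouring groups overlapped for all 7 members.

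**Figure D1:**
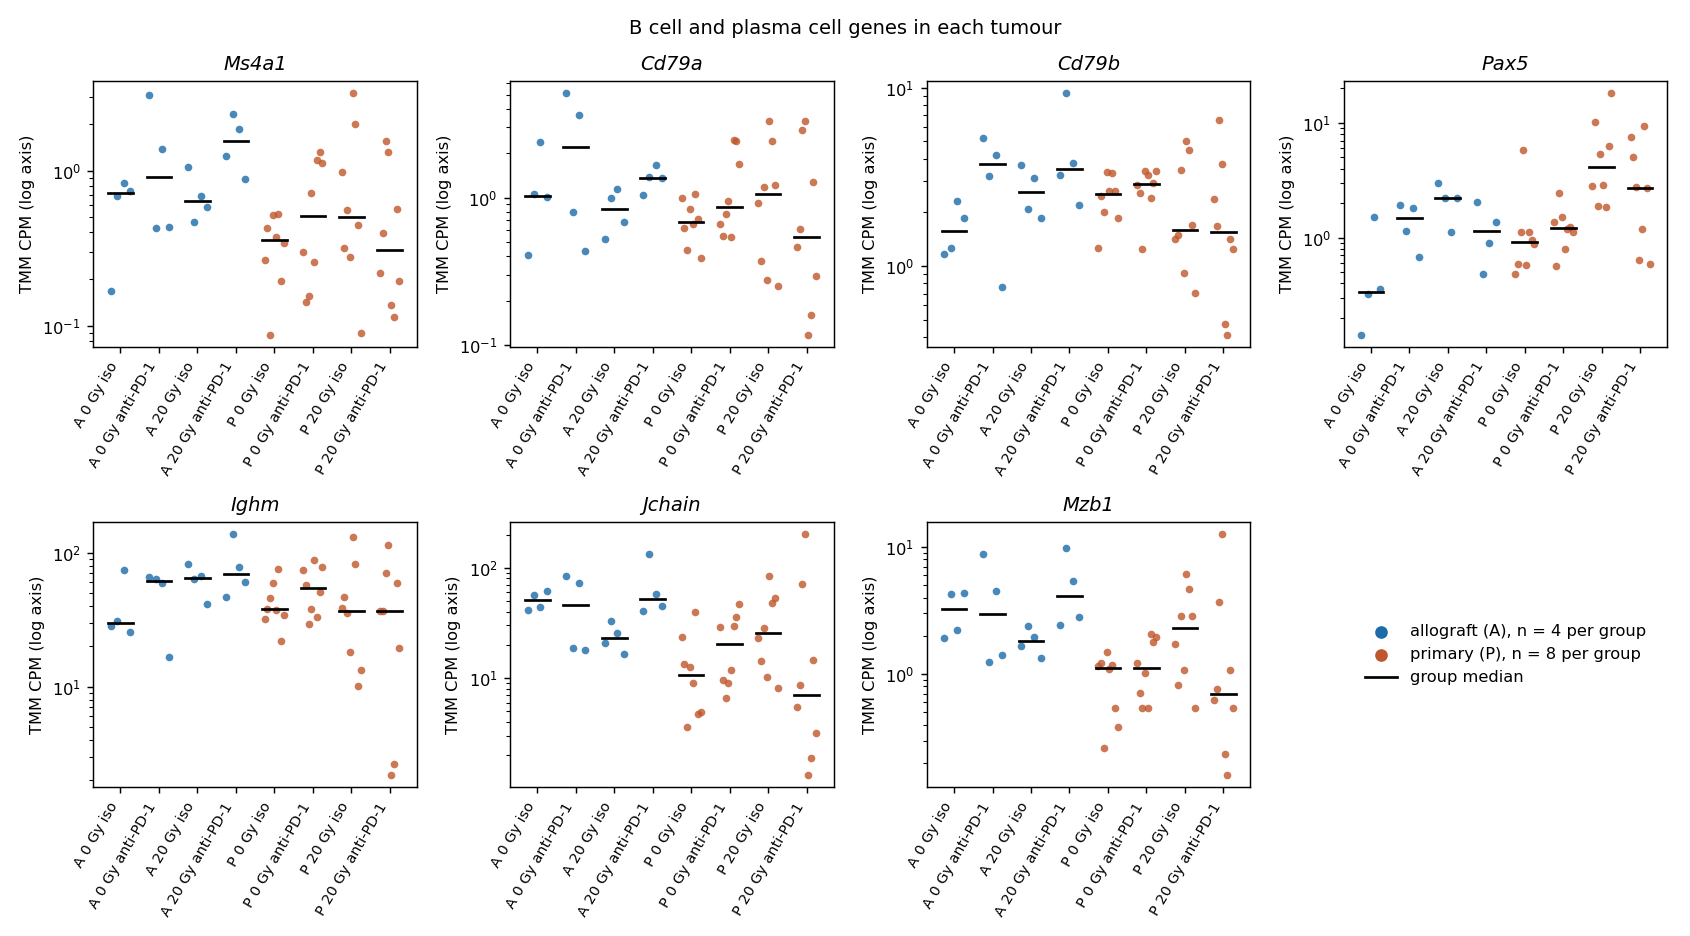
TMM-normalised CPM (log axis) of each of the 7 genes in each tumour, by group; points are tumours, black bars group medians, blue allografts (n = 4 per group) and orange primary tumours (n = 8 per group). Jchain and Mzb1 of the control primary tumours lie below those of the control allografts, Pax5 is highest in irradiated primary tumours, and the irradiated primary tumours given anti-PD-1 spread widest in Jchain.

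Few of the members were called for radiation, the antibody or tumour kind by the test used here, edgeR's quasi-likelihood test with Benjamini-Hochberg adjustment over all genes and a call at an adjusted p below 0.05. Between control groups, 2 of 7 members were called, both lower in primary tumours, where 10.0% of 17357 genes were called and 3.99% were called lower. In primary tumours with the isotype antibody, 20 Gy raised 1 of 7 members, against 14.5% of 17770 genes called and 7.85% called higher. With anti-PD-1, 20 Gy called 0 of 7 members in primary tumours (1 at an unadjusted p below 0.05, 1 by DESeq2), where 7.92% of genes were called. In allografts 20 Gy called 0 of 7 with the isotype antibody (2 unadjusted, 1 by DESeq2; 5.14% of 17746 genes) and 0 of 7 with anti-PD-1 (0 unadjusted, 0 by DESeq2; 3.96% of genes). The combination against the control group called 0 of 7 in allografts (3 unadjusted, 1 by DESeq2; 9.66% of genes) and 0 of 7 in primary tumours (2 unadjusted, 1 by DESeq2; 13.8% of genes). These comparisons share their control tumours within each kind.

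Anti-PD-1 alone, compared with the isotype antibody at the same dose, called 0 of 7 members by edgeR in all 4 comparisons, where 0.0% of all genes were called. The unadjusted test passed 2 members in allografts at 20 Gy, Jchain and Mzb1, and 0 in the other 3 comparisons, and DESeq2 called 0 members in all 4. Of all genes, 299 and 682 passed unadjusted in allografts at 0 and 20 Gy, and 412 and 1443 in primary tumours, while DESeq2 called 0, 0, 3 and 5.

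**Figure D2:**
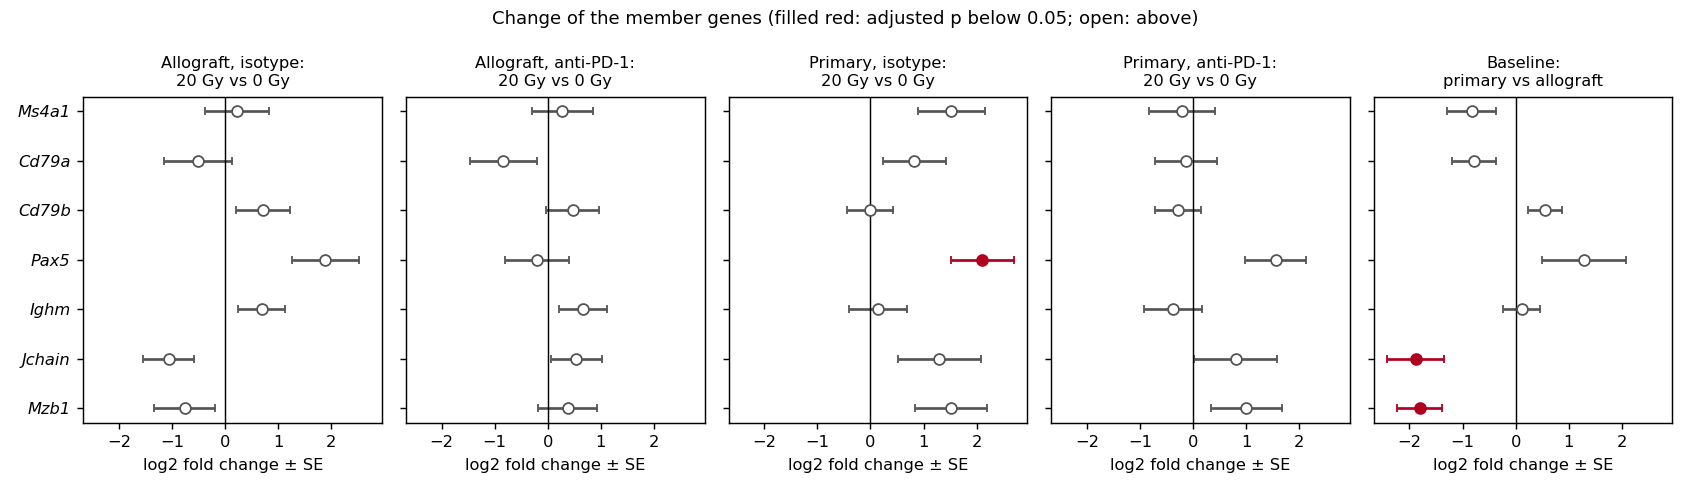
Log2 fold change ± SE of each member in 5 comparisons (edgeR; 4 against 4 allografts, 8 against 8 primary tumours, 8 primary against 4 allografts at baseline). Filled red points have an adjusted p below 0.05, namely Pax5 after 20 Gy in primary tumours with the isotype antibody, and Jchain and Mzb1 at baseline.

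Pax5, the B cell identity factor, rose after 20 Gy in primary tumours given the isotype antibody, and in that comparison it was the only member called. In the 8 control primary tumours it had a lowest value of 0.481, a median of 0.921 and a highest of 5.79 CPM. In the 8 irradiated tumours these were 1.84, 4.13 and 18.2 CPM. All 8 irradiated tumours were above 7 of the 8 controls, and the exception, control replicate 4 at 5.79 CPM, overlapped them. The log2 fold change was 2.11 ± 0.59 (SE, 8 against 8), with an edgeR adjusted p of 0.0155. It stayed called in 16 of 16 fits that left out a tumour, with adjusted p-values of 0.000532 to 0.0394. Without control replicate 4 the log2 fold change was 2.92, and without irradiated replicate 8, the tumour at 18.2 CPM, it was 1.67. Skeletal muscle markers were uneven in the same comparison: 6 of 6 had a log2 difference above 0, with a median of 2.13 and 0 called by edgeR (0 unadjusted), and their sum was 48.1 to 4760 CPM in controls (median 1410) and 233 to 36100 CPM in irradiated tumours (median 1126). With anti-PD-1 their median difference was 2.73 and for the combination 2.84, with 0 of 6 called by edgeR in each (4 and 5 unadjusted). Their part in the difference of Pax5 was not tested.

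With anti-PD-1 the 8 unirradiated primary tumours had 0.571 to 2.44 CPM of Pax5 (median 1.21) and the 8 irradiated ones 0.586 to 9.46 (median 2.74). Of the irradiated tumours 5 of 8 were above the highest unirradiated one and the other 3 overlapped that group. The log2 difference of 1.55 ± 0.58 missed the threshold (edgeR adjusted p 0.0972). DESeq2 put it past the threshold at 0.0392. Combined treatment against control gave 1.39 ± 0.58 (edgeR adjusted p 0.105), which became 2.20 with an adjusted p of 0.0066 without control replicate 4. That was the only call in 16 fits that left out a tumour, and the edgeR adjusted p-values reached 0.239. The dose effects with the 2 antibodies were not shown to differ: the interaction was −0.55 ± 0.81 (edgeR adjusted p 0.975; 0.0% of genes called).

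In allografts Pax5 was low in the control group, with 0.143, 0.321, 1.51 and 0.359 CPM. The irradiated isotype tumours had 3.02, 2.22, 1.12 and 2.20 CPM. Control replicate 3 alone reached into the irradiated range. The difference was 1.89 ± 0.63 on the log2 scale (4 against 4, edgeR adjusted p 0.105), and without control replicate 3 it was 2.97 with an adjusted p of 0.00583. No other of the 8 fits that left out a tumour called it, and the edgeR adjusted p-values reached 0.298. DESeq2 called it with all 8 tumours (adjusted p 0.0315). The animals' identifiers began with 5 in all 4 control allografts and with 4 in 3 of the 4 irradiated ones; what the digit stands for is not stated, and with it as a term the difference was 1.69 (edgeR adjusted p 0.318). With anti-PD-1, Pax5 was 1.94, 1.14, 1.82 and 0.685 CPM at 0 Gy and 2.03, 0.483, 0.901 and 1.38 CPM at 20 Gy. Those groups overlapped, with 1 irradiated tumour above and 1 below the unirradiated range (log2 difference −0.20 ± 0.61, edgeR adjusted p 0.895). The dose-by-antibody interaction in allografts was −2.09 ± 0.87 (edgeR unadjusted p 0.0296, adjusted 0.864; 0.0% of genes called), and the dose effect was not shown to differ between primary tumours and allografts (0.23 ± 0.96, edgeR adjusted p 0.937).

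Ighm, the constant region of the IgM heavy chain, did not pass the test in any comparison. Control allografts had 28.2, 31.2, 74.6 and 25.4 CPM, and allografts with 20 Gy and anti-PD-1 had 46.4, 138.4, 78.8 and 60.2 CPM. These groups overlapped through control replicate 3, and the log2 difference of 1.01 ± 0.45 had an edgeR adjusted p of 0.177. Of the 8 fits that left out a tumour, only that without control replicate 3 called Ighm (1.51, edgeR adjusted p 0.0377). Pax5 passed in that fit as well (2.12, adjusted p 0.0234). Over the 8 fits the log2 difference of Ighm was 0.656 to 1.51, with edgeR adjusted p-values up to 0.477. In primary tumours the median of Ighm was 37.9 CPM in controls, 54.2 with anti-PD-1, 36.9 with 20 Gy and 36.8 with both. The ranges were 21.9 to 75.5, 29.2 to 89.0, 10.1 to 130.5 and 2.17 to 115.1 CPM, so that the irradiated groups reached both lower and higher than the unirradiated ones.

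Cd79a and Cd79b, the signalling partners of the receptor, did not pass the test in any comparison either. Cd79a had medians of 1.03, 2.21, 0.836 and 1.37 CPM in allografts with isotype, anti-PD-1, 20 Gy and both, and 0.687, 0.863, 1.05 and 0.541 CPM in the same groups of primary tumours. Its 2 highest tumours were both unirradiated allografts with anti-PD-1, at 5.13 and 3.62 CPM, while the other 2 of that group had 0.804 and 0.431 CPM. Cd79b had medians of 1.56, 3.71, 2.60 and 3.50 CPM in allografts and 2.54, 2.88, 1.59 and 1.54 CPM in primary tumours, in the same order. In the combination allografts Cd79b was 3.22, 9.32, 3.77 and 2.19 CPM against 1.17, 1.26, 2.32 and 1.86 CPM in controls. Only replicate 4 of the treated group was within the control range; the log2 difference was 1.47 ± 0.52, with an adjusted p of 0.0897 by edgeR and 0.0301 by DESeq2.

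Ms4a1, which encodes CD20, had the lowest median of the members over all tumours and was above 1 CPM in 13 of 48 tumours. Control primary tumours had 0.0880 to 0.527 CPM (median 0.358) and irradiated primary tumours with isotype 0.0908 to 3.16 CPM (median 0.503). Replicates 5 and 6 of the irradiated group stood highest at 3.16 and 2.00 CPM, whereas replicate 8 was near the lowest control. The difference was 1.52 ± 0.64 on the log2 scale and missed the threshold (edgeR adjusted p 0.105). In allografts the combination group had 1.25, 2.32, 1.85 and 0.888 CPM, all above the control tumours at 0.167, 0.687, 0.833 and 0.740 CPM. That difference of 1.36 ± 0.60 missed the threshold as well (edgeR adjusted p 0.176).

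The plasma cell genes Jchain and Mzb1 were lower in control primary tumours than in control allografts, the members called between the tumour kinds. Control allografts had 41.1, 57.0, 44.6 and 61.6 CPM of Jchain. The 8 control primary tumours had 3.59 to 39.4 CPM with a median of 10.8, all below the lowest allograft. The log2 difference, primary minus allograft, was −1.88 ± 0.54 (8 against 4, edgeR adjusted p 0.0429). It rests near the threshold: only without primary replicate 1 or 6 was it still called, the other 10 of the 12 fits without a tumour gave adjusted p-values of 0.0536 to 0.12, and the fit of all 48 tumours gave 0.128.

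Mzb1 was 1.93, 4.24, 2.23 and 4.3 CPM in control allografts and 0.264 to 1.49 CPM, with a median of 1.12, in control primary tumours. No primary tumour reached the lowest allograft. For both genes, tumour kind and the first digit of the animal identifier cannot be told apart at baseline, since all 4 control allografts have digit 5 and all 8 control primary tumours digit 4. An exon of Mzb1 is shared with a longer gene model on the same strand, so its reads could be divided between the models. The log2 difference was −1.81 ± 0.43 with an edgeR adjusted p of 0.0199. The call was kept in 10 of 12 fits without a tumour and lost without allograft replicate 2 (adjusted p 0.0753) or 4 (0.0768), and in the fit of all 48 tumours (0.0952). The other 5 members were not called at baseline, with log2 differences of −0.83 for Ms4a1, −0.78 for Cd79a, 0.11 for Ighm, 0.55 for Cd79b and 1.28 for Pax5.

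T cell genes moved the same way at baseline: 4 of 7, Cd3d, Cd3e, Cd3g and Cd8a, were lower in primary tumours, the list summing to 17.9 to 77.5 CPM there and 51.6 to 108.3 CPM in allografts. Red blood cell and muscle markers had medians of −1.47 and −1.87 with 0 of 5 and 0 of 6 called (4 and 0 unadjusted), beside a median of 0.01 over all genes tested, and 3 of 5 mesenchymal markers were higher in primary tumours. The part of these mixtures in the differences of Jchain and Mzb1 was not tested. Of the other plasma cell genes, Prdm1, the factor that drives plasma cell formation, was lower by −1.41 ± 0.31 (edgeR adjusted p 0.0127). Within the control allografts Prdm1 did not follow the members: replicate 1 had the highest Prdm1 (34.2 CPM) and the lowest Jchain (41.1) and Mzb1 (1.93). Tnfrsf17, near the floor, had medians of 0.0568 CPM in control allografts and 0.0709 CPM in control primary tumours. Sdc1, which encodes the plasma cell surface protein CD138 and is also made by epithelial and other cells, was lower by −1.33 ± 0.19 (edgeR adjusted p 0.00143), and the chaperone gene Txndc5 was higher by 0.52 ± 0.13. Thus 3 of 10 tested genes of the plasma cell list were called, 1 higher and 2 lower, beside 10.0% of all genes, and the list median was −0.70.

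After 20 Gy with the isotype antibody, Jchain and Mzb1 pointed in different directions in the tumour kinds, without passing the test. Irradiated allografts had 20.9, 32.7, 25.5 and 16.7 CPM of Jchain, all below the control allografts (log2 −1.07 ± 0.48, edgeR adjusted p 0.253). With the identifier digit as a term the difference was −0.29 (adjusted p 0.842), and with only these groups in the fit the adjusted p was 0.0316. Red blood cell markers had a median of −1.06 in this comparison, with 0 of 5 above 0 and 0 called by edgeR (0 unadjusted), and summed to 78.3 to 516.6 CPM in controls and 66.5 to 208.9 CPM in irradiated allografts; their part was not tested. Irradiated primary tumours had 8.15 to 84.6 CPM (median 25.7), overlapping the controls (1.30 ± 0.79, edgeR adjusted p 0.279). For Mzb1 the differences were −0.77 ± 0.57 in allografts and 1.52 ± 0.67 in primary tumours (edgeR adjusted p 0.534 and 0.128); the first became 0.18 with the identifier digit as a term. The interaction of kind and dose was 2.37 ± 1.20 for Jchain and 2.29 ± 1.05 for Mzb1, with edgeR adjusted p-values of 0.513 and 0.491, so the kinds were not shown to differ; it called 0 of 7 members (1 unadjusted, 0 by DESeq2) and 1 of 19327 genes, 0.00517%.

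In irradiated allografts, Jchain and Mzb1 did not pass the test for anti-PD-1 against isotype, though all 4 tumours with anti-PD-1 were above all 4 with isotype. Jchain was 40.5, 133.2, 58.4 and 45.2 CPM with anti-PD-1 and, as given above, at most 32.7 CPM with isotype, so the groups did not overlap. The log2 difference of 1.5 ± 0.49 had an unadjusted p of 0.00755 and an edgeR adjusted p of 0.682. Mzb1 was 2.44, 9.81, 5.35 and 2.82 CPM against 1.65, 2.37, 1.97 and 1.34 CPM, again without overlap, with a difference of 1.44 ± 0.58 and the same adjusted p. The share of all genes whose groups separate in this way was not counted, for this or any other comparison. Jchain and Mzb1 also moved closely within allograft groups (r = 0.956), so their differences are not separate observations. With the identifier digit as a term these differences were 0.93 and 0.71. In this comparison 10 of 10 immunoglobulin constant genes, 7 of 7 T cell markers and 5 of 5 red blood cell markers had log2 differences above 0, with medians of 1.2, 0.75 and 0.90 beside −0.02 over all genes and 0 called by edgeR in each list (5, 3 and 0 unadjusted). Mesenchymal markers went the other way, with 0 of 5 above 0, a median of −0.66 and 0 called by edgeR (0 unadjusted). The T cell markers summed to 62.3 to 125.4 CPM with isotype and 88.4 to 229.6 CPM with anti-PD-1, and the red blood cell markers to 66.5 to 208.9 and 98.2 to 400.1 CPM. Their part in the differences of Jchain and Mzb1 was not tested.

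Irradiated primary tumours given anti-PD-1 had the widest range of the 8 groups, as highest over lowest tumour, for each member but Ms4a1, which spread widest in irradiated primary tumours with isotype. Jchain ran from 1.31 to 203 CPM with a median of 7.00, and Mzb1 from 0.160 to 12.7 CPM with a median of 0.697. Replicate 4 held the highest Jchain and Mzb1 of all 48 tumours, while replicates 5 and 6 held the 2 lowest values of Jchain, Mzb1, Cd79a, Cd79b and Ighm. Without replicate 4 the differences shrank: the log2 difference of Mzb1 between combination and control was 1.44 ± 0.67 (edgeR adjusted p 0.145), and without it 0.15. That of Jchain went from 1.5 to 0.14. Pax5 did not follow this order, with 0.641 CPM in replicate 4, 1.19 in replicate 5 and 9.46 in replicate 6.

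Among 16 other B cell surface and signalling genes, some rose after 20 Gy while Pax5 was the only member called. In primary tumours with isotype 4 of 13 tested genes were called, where 14.5% of all genes were, all 4 higher: Cd72 (log2 1.78 ± 0.37, edgeR adjusted p 0.00143), Cd22 (1.48 ± 0.34), Cd180 (1.68 ± 0.39) and Btk (0.60 ± 0.20). The list median was 0.67 against −0.02 over all genes tested. In allografts with isotype, where 5.14% of all genes were called, 2 of 13 were, Cd72 (2.45 ± 0.48, edgeR adjusted p 0.0095) and Cd180 (2.11 ± 0.50), with a list median of 0.39 against 0.00. Cd72, Cd180 and Btk are also made by macrophages and other myeloid cells, and some macrophage markers were called higher in the same comparisons, 2 of 5 in primary tumours (Cd68 and C1qa; 3 of 5 had a log2 difference above 0) and 1 of 5 in allografts (Cd68; 4 of 5 above 0); their part in the rise was not tested.

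Of 8 B cell transcription and germinal centre genes, 0 were called in primary tumours after 20 Gy with isotype by edgeR (1 unadjusted), and in allografts 1 rose, Pou2f2 (2.00 ± 0.44, edgeR adjusted p 0.0174), which myeloid cells also express. At baseline, where 10.0% of all genes were called, Ebf1, a B cell factor also made by stromal and fat cells, was higher in primary tumours. Its difference of 2.60 ± 0.40 (edgeR adjusted p 0.00219) had a direction opposite to that of Jchain and Mzb1. The list did not all go with Ebf1. Spib and Pou2af1 had medians of 2.10 and 1.27 CPM in control primary tumours against 3.26 and 1.59 CPM in control allografts, with overlapping ranges. Of the plasma cell list, the receptor gene Slamf7 rose after 20 Gy with isotype in primary tumours (2.35 ± 0.53, edgeR adjusted p 0.00292) and in allografts (2.36 ± 0.51, 0.0152); it is shared with cytotoxic and myeloid cells. Tnfrsf13b rose (0.84 ± 0.28) and Txndc5 fell (−0.48 ± 0.16) in the same primary tumours, making 3 of 10 genes called there, beside 14.5% of all genes, and 1 of 10 in allografts, beside 5.14%. The 11 immunoglobulin constant genes other than Ighm gave 0 calls by edgeR among 10 tested in both comparisons (0 unadjusted). The light chain gene Igkc, for one, had medians of 18.5 CPM in control and 45 CPM in irradiated primary tumours, with a log2 difference of 0.96 ± 0.84.

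Of 10 genes that attract B cells or keep them alive, Tnfsf13b, which encodes the survival factor BAFF, rose after 20 Gy with isotype in primary tumours (1.44 ± 0.39, edgeR adjusted p 0.0118) and in allografts (1.09 ± 0.27, 0.032). In primary tumours Lta (1.80 ± 0.58) and Ccr7 (1.40 ± 0.46) rose with it, so that 3 of 7 tested genes were called, beside 14.5% of all genes, and 1 of 9 in allografts, beside 5.14%. With anti-PD-1 as the background antibody, 20 Gy called 0 of these genes by edgeR in allografts (1 of 9 unadjusted), beside 3.96% of all genes. In primary tumours it called 0 as well (2 of 7 unadjusted), beside 7.92%. Medians of Tnfsf13b were still higher at 20 Gy than at 0 Gy. They were 19.7 against 13.6 CPM in allografts and 11.4 against 6.10 CPM in primary tumours. The interaction of dose with antibody called 0.0% of genes by edgeR in both kinds, so the dose effects were not shown to differ. Cxcl13, the chemokine that draws B cells into follicles, had medians of 11.2 CPM in control and 42.6 CPM in irradiated primary tumours with isotype and 11.4 against 52.6 CPM in allografts, and neither difference passed the test (1.0 ± 0.67 and 2.55 ± 0.97, edgeR adjusted p 0.33 and 0.165).

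Over all 48 tumours the level of Pax5 did not follow that of the other 6 members. Over the 48 tumours Spearman's rho among the 6 lay between 0.497 (Ighm with Mzb1) and 0.953 (Jchain with Mzb1), whereas Pax5 had rho between −0.147 and 0.031 with each of them. These values describe libraries that share depth and treatment groups and are given without a test. With members and immunoglobulin genes left out, the genes nearest to Cd79a in rho included Pou2af1 (0.824), Nsg2 (0.774), P2ry10 (0.758) and Ly6d (0.754). Those nearest to Jchain, with the same genes left out, were Pou2af1 (0.841), Cd226 (0.838), Cd27 (0.837), Cd3d (0.828) and Gm30054 (0.82). For Ighm and Cd79b the nearest genes, with the same genes left out, were looked up after the values were seen. Those of Ighm were Lpar5 (0.847), Gna15 (0.824), Xcr1 (0.815), a chemokine receptor gene of dendritic cells, BC035044 (0.811) and Rasal3 (0.806). Those of Cd79b were H2-Ob (0.776), a class II antigen presentation gene, Clec4b1 (0.759), Plbd1 (0.75), BC035044 (0.734) and Lpar5 (0.725).

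**Figure D3:**
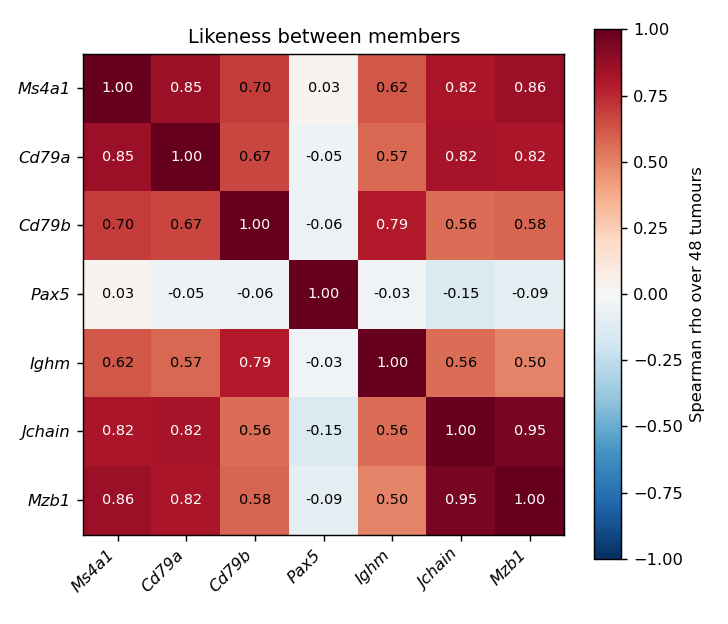
Spearman's rho between the 7 members over 48 tumours, printed in each cell. The row and column of Pax5 lie between −0.15 and 0.03, while the other members have values from 0.50 to 0.95 with each other.

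Genes nearest to Pax5 were listed after its separate pattern had been seen. They were 4933412E12Rik (rho 0.838), the RNA-editing enzyme gene Adar (0.80), Xaf1 (0.795), Usp18 (0.793), which encodes a protease that removes the ubiquitin-like protein ISG15, and Stat2 (0.792), a signal transducer of interferon receptors. Within groups the correlation of Pax5 with these genes was 0.701 to 0.802 in 32 primary tumours and 0.628 to 0.719 in 16 allografts; the genes were picked for their rho with Pax5 in the same tumours, so these values are no independent support. Usp18 itself rose after 20 Gy with isotype, by 1.90 ± 0.51 in primary tumours and 2.83 ± 0.40 in allografts (edgeR adjusted p 0.0113 and 0.00162). It also rose after 20 Gy with anti-PD-1, by 1.83 ± 0.51 in primary tumours and 1.97 ± 0.39 in allografts (edgeR adjusted p 0.0241 and 0.0132), and in those allografts Pax5 had the difference of −0.20 ± 0.61 given above. In the same allografts Xaf1 rose by 1.14 ± 0.27 (edgeR adjusted p 0.0314), while Stat2 (1.02 ± 0.28, 0.0518) and Adar (0.76 ± 0.25, 0.0989) were not called. Usp18 was not called for the combination against control in primary tumours (1.36 ± 0.50, edgeR adjusted p 0.0643). The control primary tumour with 5.79 CPM of Pax5 had 166 CPM of Usp18, and the other 7 controls had 7.99 to 45.9 CPM.

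**Figure D4:**
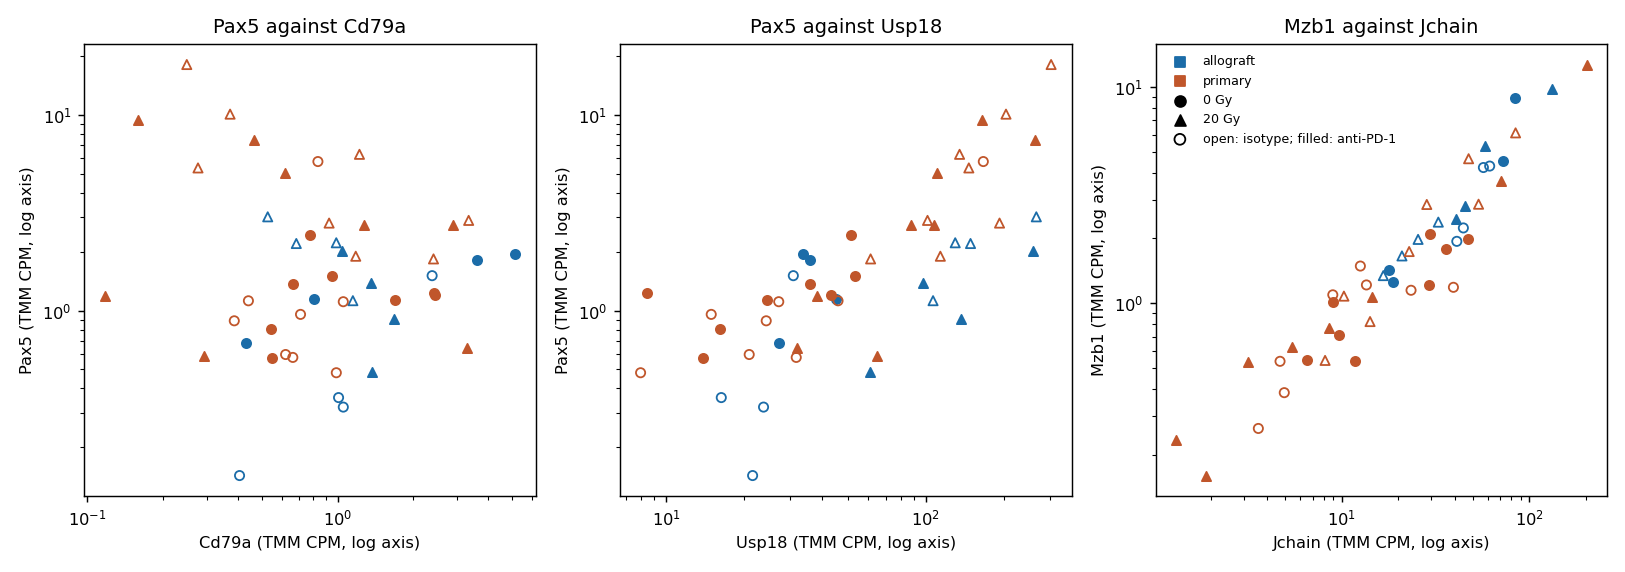
Levels (TMM CPM, log axes) in 48 tumours of Pax5 against Cd79a, Pax5 against Usp18 and Mzb1 against Jchain; blue allografts, orange primary tumours, circles 0 Gy, triangles 20 Gy, open isotype, filled anti-PD-1. Pax5 shows no common trend with Cd79a (rho −0.05) and rises with Usp18 (rho 0.79), and Mzb1 rises with Jchain (rho 0.95).

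Within groups, 5 pairs were compared in each tumour kind on log2 CPM with the group mean taken off, with 100000 permutations inside groups and adjustment over 10 relations. In the 32 primary tumours Jchain and Mzb1 had r = 0.941 and rho = 0.90 (permutation p 1e-05 for both, the smallest these permutations can give; adjusted 3.33e-05). Cd79a correlated with Jchain at r = 0.893 and rho = 0.875 (permutation p 1e-05; adjusted 3.33e-05), with Cd79b at r = 0.785 and rho = 0.662 (permutation p 2e-05 and 0.00054; adjusted 5e-05 and 0.00108) and with Ighm at r = 0.688 and rho = 0.551 (permutation p 0.00104 and 0.00561; adjusted 0.00173 and 0.00801). It also correlated with the T cell gene Cd3e at r = 0.763 and rho = 0.66 (permutation p 5e-05 and 0.00033; adjusted 0.0001 and 0.000825). Without the 2 tumours farthest from the median of the first gene, r was 0.911, 0.874, 0.72, 0.577 and 0.696 in the order given, and in the 30 primary tumours whose identifiers begin with 4 it was 0.943, 0.895, 0.798, 0.735 and 0.764.

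In the 16 allografts Jchain and Mzb1 again moved closely, with r = 0.956 and rho = 0.968 (permutation p 1e-05; adjusted 3.33e-05), r = 0.945 without the 2 farthest tumours and 0.94 in the 11 tumours of identifier digit 5. The 4 relations of Cd79a were weaker: r = 0.645 with Cd79b (rho 0.585, permutation p 0.0153 and 0.032), 0.626 with Ighm (rho 0.574, p 0.0301 and 0.0388), 0.728 with Jchain (rho 0.709, p 0.0397 and 0.0299) and 0.583 with Cd3e (rho 0.762, p 0.0321 and 0.00451). Their adjusted p-values were 0.0219 to 0.0397 for r and 0.00752 to 0.0388 for rho. Without the 2 tumours farthest from the median of Cd79a, r was 0.403, 0.58, 0.246 and 0.492, with permutation p-values of 0.0838 to 0.268. The relations with Jchain and Cd79b rested on those tumours, while r with Ighm was nearly as large without them and that with Cd3e somewhat smaller. Within identifier digit 5 they were 0.784, 0.842, 0.691 and 0.54. Pax5 with Cd79a, added after the data were seen, had r = −0.292 and rho = −0.251 in primary tumours (permutation p 0.177 and 0.224) and r = 0.54 and rho = 0.368 in allografts (permutation p 0.0478 and 0.209; adjusted 0.0957 and 0.224; r = 0.41 without the 2 farthest and 0.789 in the 11 tumours of identifier digit 5).

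Ighm is 1 of 8 heavy-chain constant genes, and their make-up shows which antibody class the RNA encodes. Igha, the constant gene of IgA, took 16.1 to 86.5% of heavy-chain constant counts (median 45.5%), Ighm 5.28 to 76.5% (median 38.5%), the 4 IgG genes together 3.41 to 53.6% (median 10.9%), and Ighd at most 1.48%. Igha had more counts than Ighm in 12 of 16 allografts and 15 of 32 primary tumours. In control tumours the Igha share was 56.2 to 67.3% in allografts and 19.4 to 45% in primary tumours, 2 ranges that do not overlap, as for Jchain. These are shares of counts, which longer genes raise, and near-identical stretches of the constant genes could divide reads between them.

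**Figure D5:**
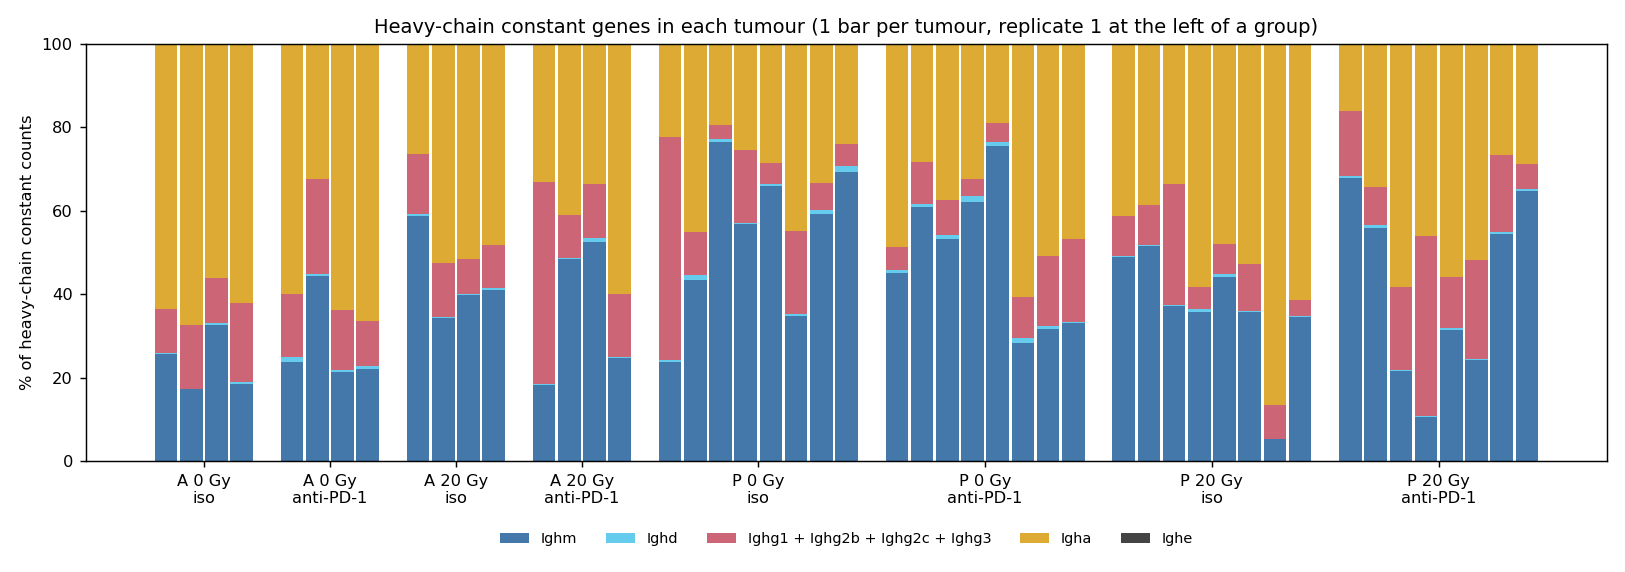
Share (%) of heavy-chain constant counts from each constant gene in each of the 48 tumours, 1 bar per tumour in replicate order, A allografts and P primary tumours. Igha (yellow) is above 56% in the 4 control allografts and at most 45% in the 8 control primary tumours, and IgG (red) exceeds 25% in 4 tumours.

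IgG genes passed 25% in 4 tumours of 4 different groups. Control primary replicate 1 had 53.6% (95% Wilson interval 52.3 to 55.0, of 5060 counts) and replicate 1 of the combination allografts 48.4% (47.4 to 49.4, of 9742). Replicate 4 of the combination primary tumours, the tumour with the highest Jchain, had 43.3% (42.8 to 43.9) of 32094 counts, and replicate 3 of the irradiated primary tumours with isotype 29.0% (27.4 to 30.6, of 3069). At the other end, replicates 5 and 6 of the combination primary tumours had 354 and 477 heavy-chain constant counts in all. The intervals cover counting error only, since reads carry no molecular identifiers.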

How the data were processed

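Bulk RNA of 48 tumours was sequenced from poly(A)-selected stranded libraries (KAPA kit, RNA integrity number above 7), per the labels' protocols. The deposited values are raw counts per Ensembl gene; the authors trimmed reads with Trimmomatic 0.36, aligned them with STAR to mm10 and counted with HTSeq, per the submitters' processing notes. The strand setting and annotation of the counting are not given in the sources used here. GENCODE M21 named 36796 of 36854 genes and gave coordinates and exon lengths.

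Groups follow the labels' source names, and replicate numbers follow listing order. edgeR 4.0.16 (R 4.3.3) was run with filterByExpr (minimum count 10), TMM normalisation and quasi-likelihood tests over all genes, with Benjamini-Hochberg adjustment and a threshold of 0.05. The 4 groups of a tumour kind shared a fit, the baseline fit held only the 2 control groups, and interactions with tumour kind used all 48 tumours. CPM are TMM-scaled over all 48. SE is the absolute log2 fold change over the root of F. Correlations used log2 CPM (prior count 2) and 100000 permutations. Alternatives were DESeq2 1.42.0, RLE factors, no filter, other sets of tumours in the fit, the identifier digit as a term and leaving out each tumour. The edgeR and correlation steps were tested on simulated data. The genes, lists and tests were chosen with earlier results of these data known. Named genes are the 7 members, a fixed set (Ighd, Igkc, Ighg2b, Prdm1, Tnfrsf17, Cxcl13, Tnfsf13b and a gene that is not reported here), up to 4 called genes per list and comparison with the smallest p, and the 5 genes most like Cd79a and Jchain; genes most like Pax5, Ighm and Cd79b and those named in shares of heavy-chain counts were added after values were seen. Tnfrsf17 was at most 0.29 CPM in any tumour. Total counts of 31.8 to 54 M leave the lowest members at fewer than 10 counts in some tumours.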

Additional observations from a re-analysis of the deposited data

Results flagged for a closer look

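In 7 of 56 combinations of a member and a group, 1 tumour stood apart from the others by Dixon's criterion on CPM. The criterion's rate of about 1 in 20 assumes normally spread values, while these CPM were not put on a log scale. The combinations also share tumours, so the 7 cannot be weighed against that rate. Pax5 was 5.787 CPM in replicate 4 of the control primary tumours, with the next at 1.122 CPM. In replicate 3 of the control allografts it was 1.508 CPM, with the next at 0.3587 CPM. The latter tumour also had the highest Ighm of its group, 74.59 CPM against 31.16 CPM in the next. In replicate 4 of the unirradiated allografts with anti-PD-1, Ighm was lowest at 16.58 CPM, below 59.68 CPM in the nearest tumour. Replicate 4 of the irradiated primary tumours with anti-PD-1 had 203.4 CPM of Jchain, with the next at 70.92 CPM, and 12.68 CPM of Mzb1, with the next at 3.656 CPM. Cd79b was lowest in replicate 3 of the unirradiated primary tumours with anti-PD-1, at 1.244 CPM, below the next at 2.419 CPM.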

How the results depend on the processing

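The call of Pax5 after 20 Gy in primary tumours with isotype was made under every alternative run, and with only the 2 groups in the fit Mzb1 joined it (2 members called). The baseline calls of Jchain and Mzb1 became 0 members in the fit of all 48 tumours and 0 to 2 when a tumour was left out. In allografts, 20 Gy with isotype called 1 member by DESeq2 (Pax5), 1 with only the 2 groups (Jchain) and 0 to 1 without a tumour; the combination called 1 by DESeq2 (Cd79b) and 0 to 2 without a tumour. In primary tumours DESeq2 called 1 member, Pax5, after 20 Gy with anti-PD-1 and 1, again Pax5, for the combination, which called 0 to 1 without a tumour. The allograft correlations of Cd79a were 0.403 with Cd79b, 0.58 with Ighm, 0.246 with Jchain and 0.492 with Cd3e without the 2 farthest tumours. The log2 difference changed sign under some alternative in 36 pairs of member and comparison, 0 of them among the 18 with an unadjusted edgeR p below 0.05. The causes were not tested.

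Counts over all genes moved by more than 1.5 times in several fits. For 20 Gy in allografts with isotype the 912 calls became 196 with the identifier digit, 372 with all 48 tumours, 1530 by DESeq2 and 294 to 1415 without a tumour. With anti-PD-1 the 703 became 1 with only the 2 groups, 1664 by DESeq2, fewer than 184 with all 48 tumours and 184 to 1275 without a tumour, and for the combination the 1714 became 851 with all 48 tumours, 2626 by DESeq2, 1075 with 2 groups and as few as 919 without a tumour. In primary tumours the 2575 fell to as few as 1706 without a tumour, the 1407 with anti-PD-1 became 2156 with all 48, 2188 by DESeq2, 822 with 2 groups and as few as 896, and the 2446 of the combination became 1384 with 2 groups. The 1738 baseline calls became 2868 by DESeq2 and as few as 732. The single call of the interaction of kind and dose became 0 with RLE factors, no filter or the identifier digit, 4 by DESeq2 and 0 to 2 without a tumour; DESeq2 called 1 gene for the interaction of kind with anti-PD-1 and 1 for that of dose with antibody in primary tumours. No paired analysis was possible because replicate numbers follow listing order only. Ms4a1, Cd79a, Pax5 and Mzb1 had under 10 counts in some tumours, which limits their precision.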

Other observations

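Ighv5-17 had the most heavy-chain variable counts in 29 of 48 tumours. In replicate 3 of the irradiated primary tumours with isotype, Ighv10-1 took 66.8% of 434 such counts (95% Wilson interval 62.3 to 71.1), and in replicate 1 of the combination allografts Ighv9-3 took 41.4% of 1719 (39.1 to 43.7). Both tumours were among the 4 with more than 25% IgG. Near-identical variable genes can divide or share reads, so these assignments are uncertain.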
